A study of Mus musculus with 11 samples.

Results

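The genes described here encode enzymes and a receptor of eicosanoid metabolism: Alox15, Alox12, Alox5 and Ltc4s of the lipoxygenase and leukotriene branch, and Pla2g4a, Ptgs2, Ptges, Hpgd and Ptger4 of the prostaglandin branch. They were taken as the 9 rows with these names among 23224 genes listed in a deposited table of mouse RNA-seq counts, and 7 of the 9 had enough counts to be tested. The list was chosen by earlier results of these libraries, and the level of Alox15, which gives the list its name, is therefore described without a test in every comparison. Which comparison led to the other 8 genes is not recorded, so their tests are not independent of that choice.

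All 11 libraries came from mouse colon cancer organoids of the AKP genotype, which carry alterations of Apc and Trp53 among other cancer genes. In 3 libraries the organoids had been re-derived from primary tumours that formed after orthotopic transplantation into immunocompetent C57Bl6 mice, and in 3 others from tumours in RAG2KO mice, whose lack of a recombinase leaves them without mature lymphocytes of the T and B lineages. The re-derived cultures were passaged until cancer cells alone remained, per the series' design text. 1 library each came from untransplanted AKP organoids transduced with a lentivirus that carried a constitutive SOX17 overexpression construct (SOX17OE) or a doxycycline-inducible one, and 3 libraries came from naive AKP organoids, the parental culture of all the others. The ages of the mice, the promoters of both constructs, the number of clones in each line and the use of doxycycline are not given by any source used here. The labels do not say whether replicates came from separate cultures or mice, so p-values measure the spread between these samples, which may be technical.

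Eicosanoids are oxygenated signalling lipids made from arachidonic acid, which cytosolic phospholipase A2 releases from membranes. Cyclooxygenases turn it into prostaglandin H2, from which prostaglandin E synthases make prostaglandin E2, a lipid that promotes intestinal tumour growth and dampens anti-tumour immunity. The dehydrogenase encoded by Hpgd inactivates prostaglandin E2 and is commonly reduced in human colorectal cancer, whereas PTGS2 is commonly raised there. Lipoxygenases act on the same fatty acid: Alox5 and Ltc4s lead to leukotrienes, Alox12 is the platelet-type 12-lipoxygenase, and Alox15 encodes the leukocyte-type enzyme, which in mice makes mainly 12-hydroxy products.

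Library totals lay between 14109182 and 22154456 expected counts, and levels are given as CPM, the count relative to the library size scaled by the trimmed mean of M-values. Summed levels of 8 epithelial markers were between 6583 and 11643 CPM in all 11 libraries, with every one of the 8 detected. Of 6 mast cell markers 5 had no count in any library. The 7 fibroblast markers summed to 8.93 CPM in RAG2KO replicate 2 and 6.57 CPM in the constitutive line, against at most 1.01 CPM in each other library. The 5 endothelial markers summed to 9.23 CPM in RAG2KO replicate 2 and 8.64 CPM in the constitutive line, to between 2.29 and 5.30 CPM in the other tumour-derived libraries and the inducible line, and to at most 1.53 CPM in naive libraries. Their part in the results was not tested. The share of counts on Rn45s, a precursor of ribosomal RNA, was 6.56 to 8.54% in the RAG2KO libraries, against 2.21 to 3.77% in the C57Bl6 libraries, 6.39% in the constitutive line, 3.71% in the inducible line and 2.42 to 4.99% in naive libraries, and its part in the results was not tested. In bulk RNA, fewer cells of a type and less RNA per cell cannot be told apart.

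The promoters of Hpgd and Ptgs2 are shown because these genes encode opposing steps of prostaglandin E2 metabolism and passed the test most often among the 9 genes. Each window runs from 250 bases before the RefSeq gene start to 50 bases after it, 5′ to 3′ on the gene's strand, in build GRCm38.p6. Capitals mark matches to the SOX core ACAAT or the cAMP-response half-site TGACG, searched on both strands and chosen after the levels were seen.
Hpgd, chr8:56294302-56294601, plus strand: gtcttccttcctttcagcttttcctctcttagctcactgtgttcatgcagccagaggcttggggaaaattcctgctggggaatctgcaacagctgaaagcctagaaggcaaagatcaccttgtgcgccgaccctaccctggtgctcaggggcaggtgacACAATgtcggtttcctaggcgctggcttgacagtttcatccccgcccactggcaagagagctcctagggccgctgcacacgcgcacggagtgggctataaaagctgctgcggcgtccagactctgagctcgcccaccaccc
Ptgs2, chr1:150099781-150100080, plus strand: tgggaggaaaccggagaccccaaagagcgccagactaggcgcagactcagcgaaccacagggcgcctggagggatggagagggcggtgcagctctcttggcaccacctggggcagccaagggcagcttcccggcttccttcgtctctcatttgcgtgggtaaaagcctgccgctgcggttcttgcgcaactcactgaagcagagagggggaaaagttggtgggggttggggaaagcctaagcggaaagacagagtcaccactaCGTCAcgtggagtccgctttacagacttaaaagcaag
The Hpgd window holds 1 ACAAT match, starting 91 bases before the gene start, and no TGACG. The Ptgs2 window holds no ACAAT match and 1 TGACG, read as CGTCA on the printed strand and starting at base 14 after the gene start. Of 27025 promoter windows of the same length, 31.6% hold the SOX core and 21.0% the cAMP-response half-site on either strand. RefSeq windows were at hand for 8 of the 9 genes. Among the others, the SOX core stood in the Ptges window and in 1 of the windows of Pla2g4a, and the half-site in none. A match is a description of these letters and shows no binding.

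Alox15 was at its highest in both SOX17OE lines, intermediate in both tumour-derived groups and lowest in naive organoids. Its level was 3.04, 2.19 and 2.63 CPM in the C57Bl6 libraries, 1.95, 2.80 and 1.75 CPM in the RAG2KO libraries, 46.8 CPM in the constitutive line (95% Poisson interval 43.6 to 50.1), 16.6 CPM in the inducible line (14.7 to 18.7) and 0.214, 0.175 and 0.238 CPM in naive libraries. None of the 8 other libraries overlapped the naive libraries, whereas the C57Bl6 and RAG2KO libraries overlapped each other. In counts, naive organoids gave 3, 4 and 5 reads per library, so each ratio to naive rests on 12 reads. Pooled over libraries, the ratio to naive was 12.7 (95% counting interval 7.03 to 25.04) in C57Bl6 tumour-derived organoids, 10.5 (5.78 to 21.0) in RAG2KO tumour-derived organoids, 225 (128 to 438) in the constitutive line and 80.0 (45.1 to 157) in the inducible line. These intervals, like all counting intervals and floors here, cover counting error only.

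**Figure D1:**
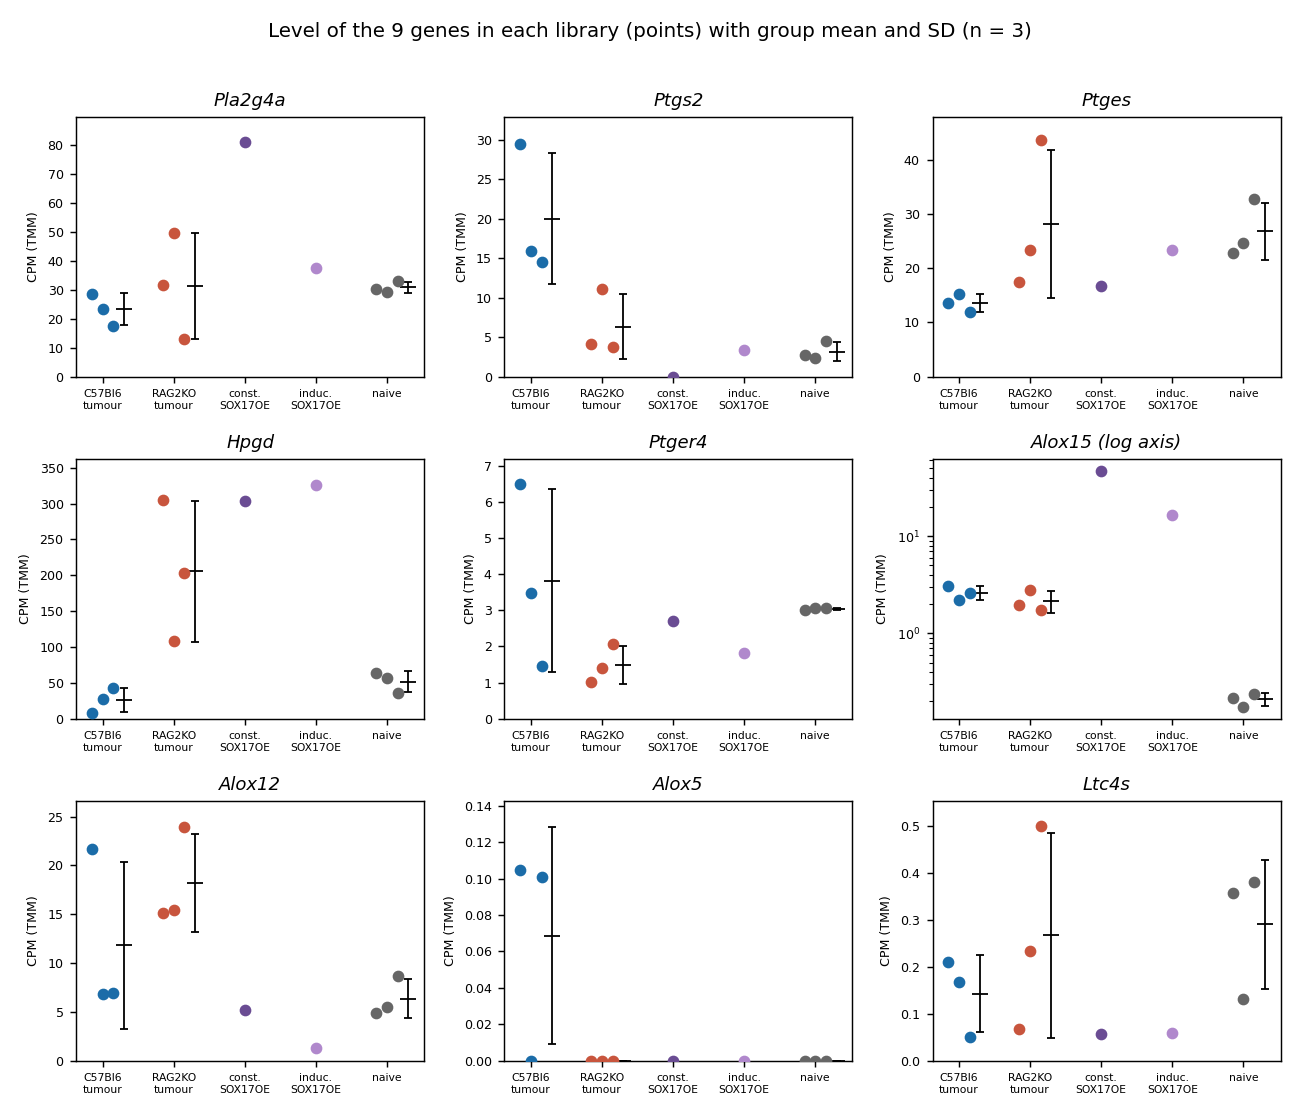
Level of the 9 genes in CPM (y axis, from 0; log axis for Alox15) by group (x axis). Points are libraries and black bars the mean ± SD of 3 libraries; each SOX17OE line is 1 library. The naive libraries lie lowest for Alox15, at 0.175 to 0.238 CPM, and the constitutive and inducible lines and the RAG2KO libraries lie above the naive libraries for Hpgd.

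On the fitted scale the Alox15 difference was 3.61 ± 0.32 (log2 fold change ± SE) for C57Bl6 tumour-derived over naive organoids and 3.34 ± 0.32 for RAG2KO tumour-derived over naive organoids. For the mean of both SOX17OE lines over naive organoids it was 7.02 ± 0.33, with 6.27 from the inducible line alone and 7.77 from the constitutive line alone. RAG2KO and C57Bl6 tumour-derived organoids differed by -0.27 ± 0.25, about the size of its standard error. The constitutive line held 2.82 times the Alox15 level of the inducible line (2.46 to 3.24), 17.8 times that of the C57Bl6 group (14.9 to 21.4) and 21.4 times that of the RAG2KO group (17.4 to 26.5). The order of groups was therefore constitutive line, inducible line, C57Bl6, RAG2KO and naive, and C57Bl6 and RAG2KO were the neighbours that did not separate.

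Alox15 and the counted level of Sox17, the endodermal transcription factor, were both lowest in the naive libraries. Among the other libraries their order differed. Sox17 had 18.4, 12.4 and 74.3 CPM in the C57Bl6 libraries, 22.2, 15.4 and 24.4 CPM in the RAG2KO libraries, 72.7 CPM in the constitutive line, 4.78 CPM in the inducible line and 0.214, 0.0438 and 0.0477 CPM in naive libraries. The constitutive line and C57Bl6 replicate 3 thus had nearly the same Sox17 level, but 46.8 and 2.63 CPM of Alox15. The inducible line had less Sox17 than every tumour-derived library and more Alox15 than all of them. No source used here says how far the construct's transcript is counted under Sox17.

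**Figure D2:**
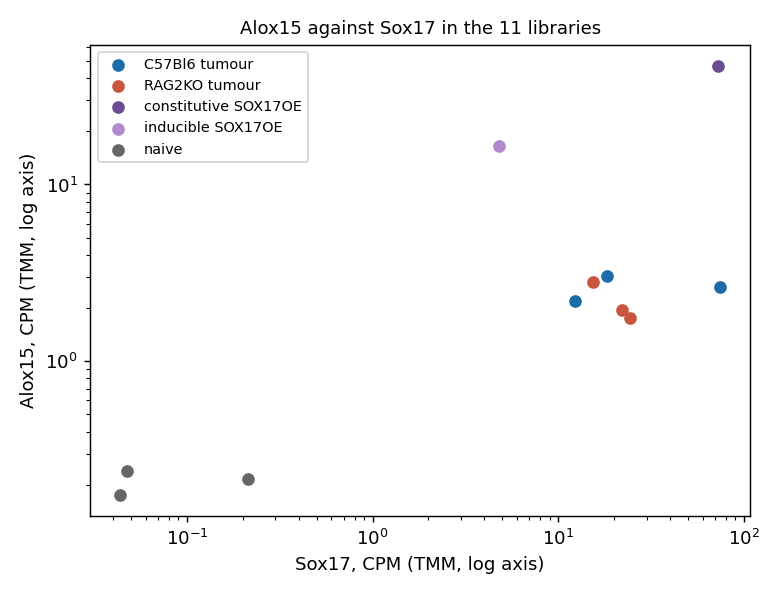
Alox15 level (y axis, CPM, log axis) against Sox17 level (x axis, CPM, log axis), 1 point per library, coloured by group. The 6 tumour-derived libraries span 12.4 to 74.3 CPM of Sox17 at 1.75 to 3.04 CPM of Alox15, the constitutive and inducible lines lie above them at 46.8 and 16.6 CPM of Alox15, and the naive libraries lie at the lower left.

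Alox15 is also a gene of mouse resident macrophages, and its human counterpart one of eosinophils. The 13 markers of myeloid cells and eosinophils summed to 7.74 to 23.0 CPM in C57Bl6 libraries and 8.09 to 17.9 CPM in RAG2KO libraries. Their sum was 15.7 CPM in the constitutive line, 6.99 CPM in the inducible line and 10.8 to 21.2 CPM in naive libraries. The ranges of the C57Bl6, RAG2KO and naive libraries overlapped and held the constitutive line, while the inducible line lay below every other library. The eosinophil granule gene Prg2 had no count in any library, and Epx reached at most 0.0505 CPM, the macrophage gene Emr1 at most 0.0576 CPM and Lyz2 at most 0.0715 CPM. Other markers of the list were present. Il5ra had 0.707 to 10.6 CPM in C57Bl6, 0.748 to 2.45 CPM in RAG2KO and 0.438 to 0.953 CPM in naive libraries. Mrc1 had 4.29 to 9.15 CPM in naive libraries and at most 2.15 CPM in C57Bl6 libraries. Csf1r and Itgam reached 1.28 and 1.81 CPM. The part of such cells in the Alox15 levels was not tested. Cd68, which is not confined to myeloid cells, held the highest value of the list, 14.5 CPM in the constitutive line.

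Alox12, the platelet-type 12-lipoxygenase, rose in RAG2KO tumour-derived organoids. Its level was 21.7, 6.79 and 6.97 CPM in C57Bl6 libraries, 15.2, 15.4 and 23.9 CPM in RAG2KO libraries, 5.19 CPM in the constitutive line (4.17 to 6.38), 1.34 CPM in the inducible line (0.850 to 2.01) and 4.93, 5.48 and 8.63 CPM in naive libraries. All RAG2KO libraries lay above all naive libraries (log2 fold change 1.51, SE 0.46, adjusted p = 0.0335, edgeR's quasi-likelihood test), but the call ended when any RAG2KO library or naive replicate 1 or 2 was left out (adjusted p from 0.050 to 0.112). C57Bl6 replicate 1 stood far above the other two C57Bl6 libraries, and the C57Bl6 difference from naive was 0.89 (SE 0.45, adjusted p = 0.218), and 0.11 (adjusted p = 0.852) without that library. Between RAG2KO and C57Bl6 it was 0.62 (SE 0.45, adjusted p = 0.328), and 1.40 (adjusted p = 0.0184) without C57Bl6 replicate 1. The mean of both SOX17OE lines lay 1.27 below naive on the log2 scale (SE 0.55, adjusted p = 0.153), and this passed when only the naive and SOX17OE libraries were fitted (adjusted p = 0.0386) or C57Bl6 replicate 1 was left out (0.0361).

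Beside these Alox12 values, the 5 platelet and megakaryocyte markers summed to 2.31 to 18.3 CPM in C57Bl6 libraries, 2.62 to 67.2 CPM in RAG2KO libraries, 1.96 CPM in the constitutive line, 1.69 CPM in the inducible line and 0.643 to 1.24 CPM in naive libraries. The chemokine gene Ppbp accounted for most of the sum in the tumour-derived libraries, and the other 4 markers were under 1 CPM in every library. In this sum all tumour-derived libraries lay above all naive libraries. RAG2KO replicate 3 and C57Bl6 replicate 1, the 2 libraries with the highest Alox12, had the lowest sums of their groups, 2.62 and 2.31 CPM. The part of platelets in the Alox12 levels was not tested.

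Alox5 and Ltc4s, the committed enzymes of leukotriene synthesis, had almost no counts and were not tested. Alox5 had 2, 0 and 2 counts in the C57Bl6 libraries and no count in any other library. A floor of 3 counts is 0.173 CPM in the constitutive line, where the 95% Poisson interval reached up to 0.213 CPM. Ltc4s, the synthase of leukotriene C4, had 4, 3 and 1 counts in C57Bl6 libraries, 1, 4 and 8 in RAG2KO libraries, 1 in each SOX17OE line and 5, 3 and 8 in naive libraries. Differences between groups were not detectable at this depth for either gene.

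Pla2g4a, the cytosolic phospholipase A2 that frees arachidonic acid, passed in none of the comparisons. Its level was 28.6, 23.5 and 17.6 CPM in C57Bl6 libraries, 31.5, 49.6 and 13.1 CPM in RAG2KO libraries, 81.1 CPM in the constitutive line (76.96 to 85.50), 37.4 CPM in the inducible line (34.5 to 40.4) and 30.4, 29.3 and 33.0 CPM in naive libraries. The constitutive line was the highest library, all C57Bl6 libraries lay below the naive ones, and the RAG2KO libraries spread on both sides of the naive ones. The log2 fold change over naive was -0.41 (SE 0.38, adjusted p = 0.516) in C57Bl6 organoids, 0.03 (SE 0.38, adjusted p = 0.967) in RAG2KO organoids and 0.83 (SE 0.42, adjusted p = 0.211) in the SOX17OE lines, which passed when only naive and SOX17OE libraries were fitted (adjusted p = 0.00969).

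Ptgs2, the inducible cyclooxygenase, rose in C57Bl6 tumour-derived organoids. It had 29.6, 16.0 and 14.6 CPM in C57Bl6 libraries, 4.18, 11.1 and 3.74 CPM in RAG2KO libraries, 0 CPM in the constitutive line, 3.38 CPM in the inducible line (2.57 to 4.37) and 2.72, 2.32 and 4.53 CPM in naive libraries. All C57Bl6 libraries lay above all RAG2KO and naive libraries, and 2 RAG2KO libraries lay within the naive range. The log2 fold change of C57Bl6 over naive was 2.65 (SE 0.48, adjusted p = 0.00599), and this call held under all 17 alternatives. RAG2KO over naive gave 0.99 (SE 0.47, adjusted p = 0.140).

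In the constitutive line no read of Ptgs2 was counted. Set against a floor of 3 counts, its level there was 18.4-fold lower than the naive mean. The 95% counting interval of its ratio to naive reached up to 0.0667. The inducible line held 1.05 times the naive level (counting interval 0.768 to 1.42). The test of both lines together gave a log2 fold change of -4.38 (SE 1.09, adjusted p = 0.0313), a fitted value that depends on the prior count and is no bound. It rested on the constitutive line: without it the value was 0.081 (adjusted p = 0.967), and without the inducible line -8.85. The call also ended without naive replicate 2 (adjusted p = 0.0583) or 3 (0.0788).

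Ptges, the inducible prostaglandin E synthase that acts after Ptgs2, had 13.5, 15.2 and 11.9 CPM in C57Bl6 libraries, 17.5, 23.4 and 43.5 CPM in RAG2KO libraries, 16.7 CPM in the constitutive line (14.8 to 18.8), 23.3 CPM in the inducible line (21.0 to 25.7) and 22.9, 24.7 and 32.8 CPM in naive libraries. All C57Bl6 libraries lay below all RAG2KO and naive libraries. C57Bl6 over naive gave a log2 fold change of -0.99 (SE 0.30, adjusted p = 0.0529), just outside the threshold, and it passed in DESeq2 (adjusted p = 0.0152), with only C57Bl6 and naive libraries fitted (0.00910) and without RAG2KO replicate 1 (0.0268) or 3 (0.0101). RAG2KO over naive was 0.07 (SE 0.30, adjusted p = 0.884), and the SOX17OE lines over naive -0.44 (SE 0.34, adjusted p = 0.403).

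Hpgd, which degrades prostaglandin E2, rose in RAG2KO tumour-derived organoids and in the SOX17OE lines. Its level was 8.38, 27.4 and 42.5 CPM in C57Bl6 libraries, 305, 109 and 203 CPM in RAG2KO libraries, 303 CPM in the constitutive line (295 to 312), 326 CPM in the inducible line (317 to 334) and 63.0, 56.6 and 35.4 CPM in naive libraries. The RAG2KO libraries and both lines lay above all naive and C57Bl6 libraries, and C57Bl6 replicate 3 lay within the naive range. RAG2KO over naive gave a log2 fold change of 1.99 (SE 0.54, adjusted p = 0.0244) and the SOX17OE lines over naive 2.61 (SE 0.59, adjusted p = 0.0241).

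Both Hpgd calls were sensitive to the libraries and genes that entered the fit. The RAG2KO call ended without RAG2KO replicate 1 (adjusted p = 0.0745) and the SOX17OE call without the constitutive line (0.108). Both ended with no filter on low counts and without any 1 of the naive libraries, where the fold changes stayed between 1.78 and 2.77. C57Bl6 over naive was -0.98 (SE 0.54, adjusted p = 0.255).

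Ptger4 encodes EP4, a receptor through which prostaglandin E2 raises cAMP. It had 6.50, 3.48 and 1.46 CPM in C57Bl6 libraries, 1.01, 1.40 and 2.06 CPM in RAG2KO libraries, 2.71 CPM in the constitutive line (1.99 to 3.60), 1.81 CPM in the inducible line (1.23 to 2.56) and 3.002, 3.07 and 3.05 CPM in naive libraries. The C57Bl6 libraries spread on both sides of the naive ones, and all RAG2KO libraries lay below them. No comparison passed: the log2 fold change over naive was 0.33 (SE 0.49, adjusted p = 0.707) in C57Bl6, -1.02 (SE 0.50, adjusted p = 0.151) in RAG2KO and -0.46 (SE 0.56, adjusted p = 0.616) in the SOX17OE lines. The C57Bl6 value was -0.30 without C57Bl6 replicate 1. Ptger4 overlaps Ttc33 on the opposite strand, and whether counting used strand is not stated, so its counts may include reads of Ttc33.

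The comparison of RAG2KO with C57Bl6 tumour-derived organoids asks which of these genes differ between the host groups. The share of counts on Rn45s was 6.56 to 8.54% in RAG2KO and 2.21 to 3.77% in C57Bl6 libraries. Its part in the differences between hosts was not tested. Ptgs2 was lower and Ptges and Hpgd were higher in RAG2KO organoids. The other prostaglandin E synthases did not pass: the log2 fold change was -0.31 (SE 0.14) for Ptges2 and -0.28 (SE 0.13) for Ptges3. Hpgd differed most, with a log2 fold change of 2.98 (SE 0.57, adjusted p = 0.00807), with 109 to 305 CPM in RAG2KO and 8.38 to 42.5 CPM in C57Bl6 libraries. This call held under all 17 alternatives.

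The difference in Ptgs2 was -1.66 (SE 0.46, adjusted p = 0.0295). This call ended with only the RAG2KO and C57Bl6 libraries fitted (adjusted p = 0.0551) and with the replicate number as a block (0.0617). It also ended when C57Bl6 replicate 1 (0.0860), RAG2KO replicate 1 (0.0817) or RAG2KO replicate 3 (0.0869) was left out. For Ptges the difference was 1.05 (SE 0.30, adjusted p = 0.0317). It ended in 6 alternatives (adjusted p from 0.0506 to 0.0969), and without RAG2KO replicate 3, the highest library, it was 0.60. Pla2g4a differed by 0.44 (SE 0.38, adjusted p = 0.428) and Ptger4 by -1.35 (SE 0.50, adjusted p = 0.0760). Ptger4 passed without C57Bl6 replicate 3 (-1.74, adjusted p = 0.0282).

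Leaving Alox15 aside, 6 of the 9 genes were tested. In C57Bl6 over naive organoids 1 rose and 0 fell, in a comparison where 15.3% of all 13720 tested genes were called. In RAG2KO over naive 2 rose and 0 fell, beside 29.2% of all genes called. In the SOX17OE lines over naive 1 rose and 1 fell, beside 12.7%. In RAG2KO over C57Bl6 2 rose and 1 fell, beside 24.0%. The C57Bl6 and RAG2KO comparisons and that of the SOX17OE lines share the same naive libraries, and the 2 tumour comparisons share their libraries with the comparison between hosts. With so few genes, none of these counts is set apart from its background.

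**Figure D3:**
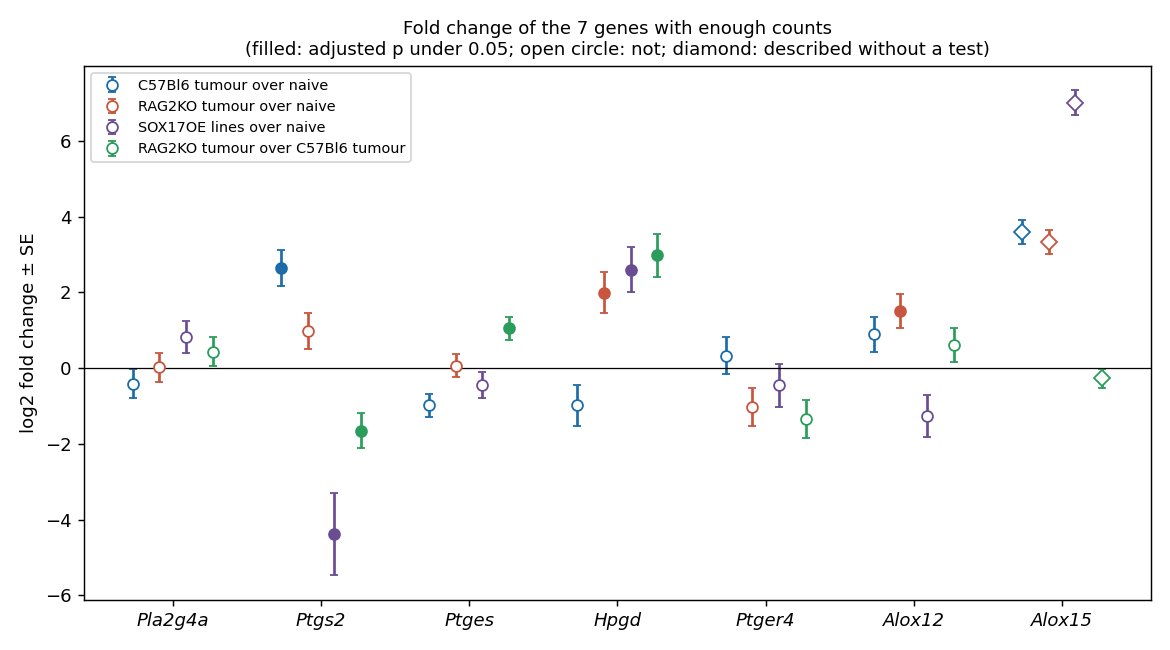
log2 fold change ± SE (y axis) of the 7 genes with enough counts (x axis) in 4 comparisons (colours); filled circles passed at an adjusted p under 0.05, open circles did not, and diamonds mark Alox15, which was not tested. Alox15 lies above 3 in each comparison with naive, while Ptgs2 and Hpgd lie on opposite sides of 0 in RAG2KO over C57Bl6 (-1.66 and 2.98).

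Beyond the 9 genes, a list of 101 further eicosanoid pathway genes, all found in the table, had 60 with enough counts. In C57Bl6 over naive organoids 7 of the 60 rose and 4 fell, with a median log2 fold change of -0.11 beside 0.02 for all genes. The called share, 18.3%, was near the 15.3% of all genes. The clearest rise was that of Ptgs1, the constitutive cyclooxygenase, with 111 ± 43.1 CPM in C57Bl6 and 2.03 ± 0.141 CPM in naive organoids (SD, n = 3 each; log2 fold change 5.76, SE 0.40, adjusted p = 4.10e-05). The secreted phospholipase Pla2g2d had 4.41 ± 2.94 CPM in C57Bl6 and 0.130 ± 0.0531 CPM in naive organoids (4.95, SE 0.67). With 1 to 4 counts per naive library, Pla2g2d passed the filter on low counts only through tumour-derived libraries. Its tests over naive are therefore not independent of that filter. Ptgr1, a reductase that inactivates leukotriene B4 and 15-keto-prostaglandins, rose by 1.96 (SE 0.33), and Lpcat3, which returns arachidonic acid to phospholipids, by 0.82 (SE 0.15). Among the genes that fell were the epoxygenases Cyp2j6 (-1.84, SE 0.20) and Cyp2c55 (-5.65, SE 0.84), the carbonyl reductase Cbr1 (-1.31, SE 0.25) and the microsomal glutathione S-transferase Mgst3 (-0.75, SE 0.16). All 8 of these calls held under every alternative.

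In RAG2KO over naive organoids 13 of the 60 rose and 6 fell, with a median of 0.22 beside 0.02 for all genes. The called share, 31.7%, was near the 29.2% of all genes. Ptgs1 had 40.9 ± 14.8 CPM in RAG2KO and 2.03 ± 0.141 CPM in naive organoids (log2 fold change 4.32, SE 0.39, adjusted p = 1.71e-04). Ptgr1 rose to 89.7 ± 16.2 CPM in RAG2KO, against 14.2 ± 2.16 CPM in naive organoids (2.66, SE 0.34), Pla2g2d rose by 5.04 (SE 0.67) and the epoxide hydrolase Ephx1 by 2.47 (SE 0.51). Mboat7, a lysophosphatidylinositol acyltransferase that uses arachidonic acid, fell (-0.82, SE 0.14), as did Cyp2c55 (-2.95, SE 0.69). The prostaglandin E synthases Ptges2 (-0.56, SE 0.14) and Ptges3 (-0.46, SE 0.13) fell as well, and their calls ended in 3 and 4 leave-outs of a library, while the other 6 held under every alternative.

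Ptgs1 is a gene of tuft cells in the mouse intestine. Of 7 tuft cell markers measured, Il25 had no count, and Pou2f3 and Trpm5, which define the lineage, reached at most 0.135 and 0.292 CPM. Dclk1 had 0.505 to 3.59 CPM in C57Bl6, 0.270 to 0.526 CPM in RAG2KO and 0.0438 to 0.143 CPM in naive libraries. All tumour-derived libraries thus lay above all naive libraries for Dclk1. The part of tuft cells in the Ptgs1 levels was not tested. The list summed to 86.4 to 155 CPM in C57Bl6 libraries, 111 to 150 CPM in RAG2KO libraries, 10.4 CPM in the constitutive line, 5.89 CPM in the inducible line and 3.02 to 6.20 CPM in naive libraries. Nearly all of it was Avil, with 82.7 to 154 CPM in C57Bl6 and 2.89 to 5.86 CPM in naive libraries.

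In the SOX17OE lines over naive organoids 7 of the 60 rose and 3 fell, with a median of 0.08 beside -0.01 for all genes, and the called share was 16.7% beside 12.7% of all genes. Ptgr2, a reductase that acts after Hpgd, had 80.3 CPM in the constitutive and 92.2 CPM in the inducible line, against 54.2 ± 5.02 CPM in naive organoids (0.67, SE 0.12, adjusted p = 0.0118). The carbonyl reductase Cbr1 had 231 and 154 CPM in the constitutive and inducible lines, against 77.7 ± 5.08 CPM in naive organoids (1.28, SE 0.27), and Cbr3 had 28.0 and 12.1 CPM, against 2.25 ± 0.274 CPM (3.02, SE 0.65). The acyl-CoA synthetase Acsl3 rose by 0.56 (SE 0.15), while Mboat7 fell by 0.61 (SE 0.16). Mgst2, a microsomal glutathione S-transferase with leukotriene C4 synthase activity, had 0.461 CPM in the constitutive line and 4.26 CPM in the inducible line, against 6.72 ± 0.781 CPM in naive organoids (-2.25, SE 0.36). Cyp2c55 had no count in the constitutive line and 51 counts in the inducible line (-5.28, SE 1.19, a fitted value that is no bound). All 7 of these calls ended without the constitutive line, where Acsl3 was 0.25, Mboat7 -0.34, Mgst2 -0.65 and Cyp2c55 -0.92. Ptgr2 was 0.77 there, Cbr1 0.99 and Cbr3 2.42 (adjusted p = 0.0594, 0.158 and 0.150).

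In RAG2KO over C57Bl6 organoids 14 of the 60 rose and 5 fell, with a median of 0.35 beside 0.00 for all genes, and the called share was 31.7% beside 24.0% of all genes. Cyp2j6 had 36.7 ± 2.09 CPM in RAG2KO and 8.32 ± 2.41 CPM in C57Bl6 organoids (2.14, SE 0.20, adjusted p = 0.00101), Mgst3 was higher by 0.96 (SE 0.16), Cbr1 by 1.47 (SE 0.25) and Acsl3 by 0.73 (SE 0.13). Ptgs1 was lower in RAG2KO, with 40.9 ± 14.8 CPM against 111 ± 43.1 CPM in C57Bl6 organoids (-1.44, SE 0.32, adjusted p = 0.0130). Mboat7 differed by -0.75 (SE 0.14), the desaturase Fads2, which acts in arachidonic acid synthesis, by -0.53 (SE 0.14) and the prostaglandin exporter Abcc4 by -0.99 (SE 0.26). The calls of Fads2 and Abcc4 ended in 4 and 7 alternatives, and Abcc4 was -0.65 without C57Bl6 replicate 1. Lpcat3, Mboat7 and Acsl3 overlap other counted genes, and the Cyp2c, Cyp2j, Cbr and Mgst families hold similar members, so reads may have been divided between genes.

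**Figure D4:**
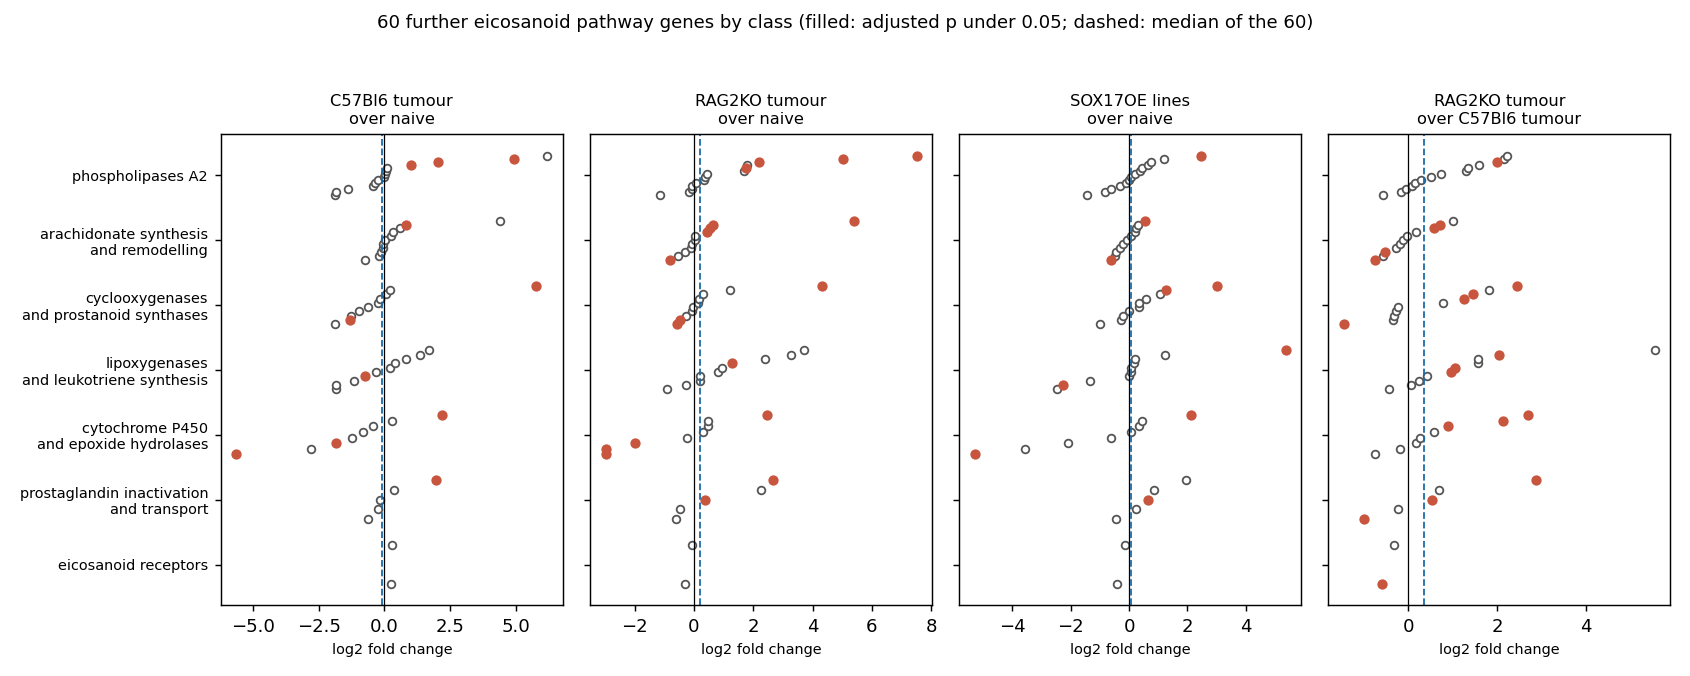
log2 fold change (x axis) of 60 further eicosanoid pathway genes by class (y axis) in 4 comparisons (panels, each with its own x range); filled points passed at an adjusted p under 0.05 and the dashed line is the median of the 60. Rises and falls occur side by side in most classes, and the median lies at 0.35 in RAG2KO over C57Bl6 and at -0.11 in C57Bl6 over naive.

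Interleukins 4 and 13 induce ALOX15 in human cells through STAT6, and 7 of 8 genes of their receptor pathway were tested. Stat6 was lower than naive in every other group: it had 95.8 ± 3.67 CPM in C57Bl6, 89.4 ± 13.3 CPM in RAG2KO, 79.2 CPM in the constitutive line, 95.8 CPM in the inducible line and 137 ± 13.4 CPM in naive organoids. It fell by 0.51 in C57Bl6 over naive (SE 0.13, adjusted p = 0.0283), by 0.61 in RAG2KO (SE 0.13, adjusted p = 0.00878) and by 0.65 in the SOX17OE lines (SE 0.15, adjusted p = 0.0244). The C57Bl6 call ended in 4 leave-outs (adjusted p up to 0.0866) and the SOX17OE call in 3, with 0.204 without the constitutive line.

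Il2rg, the shared gamma chain, rose in RAG2KO over naive (4.01, SE 1.24, adjusted p = 0.0346) at 0.187 to 1.11 CPM in RAG2KO libraries, and this call ended in 4 leave-outs (adjusted p up to 0.124). It had at most 2 counts in any naive or C57Bl6 library and 1 count in the inducible line. Il2rg therefore passed the filter on low counts only through RAG2KO libraries and the constitutive line. Its test over naive is not independent of that filter. The receptor chains Il4ra and Il13ra1 and the kinases Jak1, Jak3 and Tyk2 passed in no comparison. Il4ra had 66.9 ± 9.20 CPM in C57Bl6 and 60.8 ± 19.2 CPM in RAG2KO organoids, against 40.4 ± 13.5 CPM in naive organoids, and Il13ra1 had 41.2 ± 15.5 and 38.6 ± 5.46 CPM, against 59.0 ± 2.02 CPM. None of the 7 passed in RAG2KO over C57Bl6 in edgeR, where the adjusted p lay between 0.0615 for Jak1 and 0.787 for Il13ra1.

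The 5 genes whose log2 level over the 11 libraries was most like that of Alox15 were Ppt1, Ifitm6, Elf5, Ctnnbip1 and Leng1, with Pearson correlations of 0.949, 0.936, 0.929, 0.927 and 0.925. Over the 9 libraries without the SOX17OE lines the same genes gave 0.870, 0.802, 0.811, 0.874 and 0.972. The libraries fall into groups and share a parental culture, and the genes were picked for this likeness, so the values are a description. Ifitm6, of the interferon-induced transmembrane family, had 37.6 CPM in the constitutive line, 9.91 CPM in the inducible line, at most 1.72 CPM in the tumour-derived libraries and no count in naive libraries. Elf5, an ETS transcription factor of glandular epithelia, had 2.54 and 1.75 CPM in the constitutive and inducible lines, at most 0.224 CPM in the tumour-derived libraries and no count in naive libraries. The other three moved over a narrower range. Ppt1, the lysosomal palmitoyl-protein thioesterase, had 39.1 and 36.5 CPM in the constitutive and inducible lines, 30.6 ± 0.0492 CPM in C57Bl6, 32.7 ± 0.965 CPM in RAG2KO and 26.9 ± 0.546 CPM in naive organoids.

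Ctnnbip1, an inhibitor of beta-catenin, had 23.6 and 15.2 CPM in the constitutive and inducible lines, 12.2 ± 2.55 CPM in C57Bl6, 12.7 ± 1.60 CPM in RAG2KO and 7.68 ± 0.798 CPM in naive organoids. Leng1, whose function is little known, had 23.9 and 22.3 CPM in the constitutive and inducible lines, 21.1 ± 1.14 CPM in C57Bl6, 20.4 ± 1.05 CPM in RAG2KO and 16.2 ± 0.322 CPM in naive organoids. None of the 9 genes was among the 5: over the same libraries Hpgd and Pla2g4a correlated with Alox15 at 0.453 and 0.456, and Alox12, Ptgs2, Ptges and Ptger4 at -0.234, -0.363, -0.359 and -0.168.

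**Figure D5:**
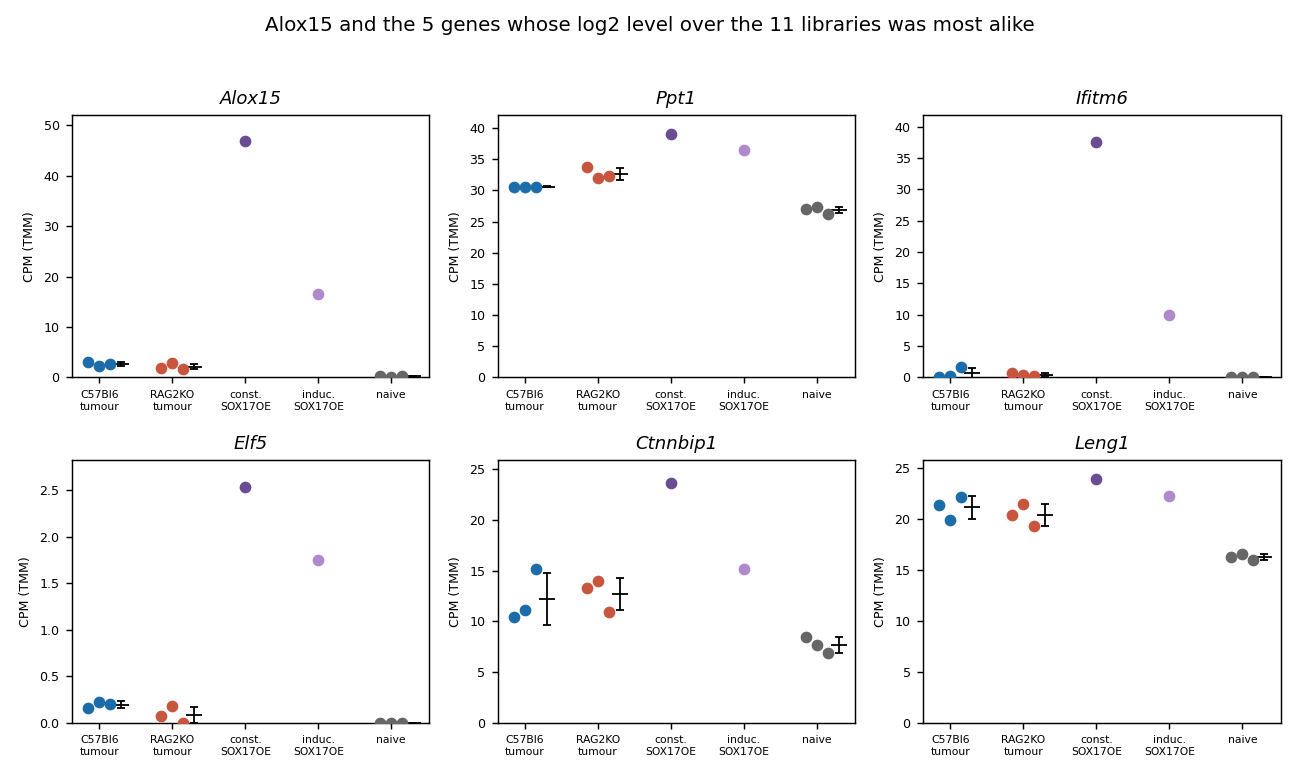
Level in CPM (y axis, from 0) of Alox15 and the 5 genes most like it, by group (x axis); points are libraries and black bars the mean ± SD of 3 libraries. In each panel the constitutive line is highest, the inducible line second and the naive libraries lowest, tied for Elf5 with 1 RAG2KO library at 0, and Ppt1 spans only 26.3 to 39.1 CPM while Ifitm6 spans 0 to 37.6 CPM.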

How the data were processed

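Poly(A) RNA was sequenced from 11 organoid samples, and per the submitters' processing notes the authors aligned reads with Bowtie to mm9 and quantified them with RSEM; no source used here gives versions, annotation or strand setting. The deposited table holds expected counts (estimated counts) for 23224 genes, which were rounded to whole numbers. All 11 libraries entered 1 fit in 5 groups, as the labels give them, in edgeR 4.0.16 under R 4.3.3: filterByExpr kept 13720 genes, libraries were scaled by TMM, and the robust quasi-likelihood test was two-sided with Benjamini-Hochberg adjustment over all 13720 genes and a threshold of 0.05. Because the smallest group had 1 library, filterByExpr could keep a gene with enough counts in 1 library alone. Some genes thus entered the tests only through the group where they were high. The SOX17OE contrast was the mean of the 2 lines minus naive, so each line, with 1 library, was taken to vary like the replicated groups. The biological coefficient of variation was 25.3%, with 6 residual degrees of freedom. Standard errors were computed from F as the size of the log2 fold change over its root. The script was tested on simulated data.

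The members and gene lists were chosen with earlier results of these data known. The text names all 9 members; from the 60 tested pathway genes, up to 4 called genes in each direction of each comparison, by adjusted p; all tested genes of the interleukin 4 and 13 list; and the 5 genes with the highest Pearson correlation with Alox15 in log2 CPM (prior count of 2), without predicted-gene names. Markers and Sox17 were added for context. Of the 52 markers 51 matched a row. Alternatives were the size factors of DESeq2, no filter on low counts, at least 1 CPM in 3 or more libraries, DESeq2 1.42.0 with its Wald test, a fit restricted to the groups compared, the replicate number as a block, and leaving out each library. Promoter windows are from RefSeq (GRCm38.p6); no coordinates of the mm9 files were used.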

Additional observations from a re-analysis of the deposited data

Results flagged for a closer look

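The effect against naive organoids differed between the hosts for 15 of the members and pathway genes named above, by the same edgeR contrast of RAG2KO over C57Bl6 tumour-derived organoids as above (quasi-likelihood test, all adjusted p under the threshold). The naive libraries cancel in this contrast, so it repeats the result given above and is no further one. Of the pathway genes, 8 were named because they passed in this contrast. Among all 13720 tested genes, 24.0% were called in it, and among the 60 tested pathway genes 31.7%. Every named pathway gene was picked for a call in some comparison, so the 15 cannot be set against these shares. Relative to the effect in C57Bl6 organoids, the log2 effect in RAG2KO organoids differed by -1.66 for Ptgs2, 1.05 for Ptges and 2.98 for Hpgd. In further pathway genes it differed by -0.53 for Fads2, 0.73 for Acsl3, -0.75 for Mboat7, -1.44 for Ptgs1, 1.47 for Cbr1, 0.96 for Mgst3, 2.14 for Cyp2j6 and -0.99 for Abcc4. It also differed by 2.46 for Cbr3, 1.05 for Mgst2, 2.69 for Cyp2c55 and 0.53 for Ptgr2, which are named above for other comparisons. Cyp2c55 had only 3, 13 and 19 counts in RAG2KO libraries and 5, 0 and 1 in C57Bl6 libraries, and their levels overlapped. Cbr3 had 2.02, 2.16 and 11.4 CPM in RAG2KO libraries, so 1 library stood far above the others. Rn45s took 6.56 to 8.54% of counts in the RAG2KO libraries and 2.21 to 3.77% in the C57Bl6 libraries, and its part in these differences was not tested.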

How the results depend on the processing

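Under the alternatives, 1321 of 1448 fold changes of named genes kept their direction and side of the threshold, 78 lost the call, 24 gained one, 24 uncalled values or values without a test moved, and 1 reversed: Ptgs2 in the SOX17OE lines ranged from -8.85 without the inducible line to 0.081 without the constitutive line. Of the members other than Alox15, the number called in C57Bl6 over naive was 2 in DESeq2 and with only the groups compared. It was 1 in RAG2KO over naive with no filter, and in the SOX17OE lines 1 with no filter and 4 with only the groups compared. In RAG2KO over C57Bl6 it was 1 with only the groups compared. Pathway calls with only the groups compared were 16 in the SOX17OE lines and 11 in RAG2KO over C57Bl6. All genes called in the SOX17OE lines numbered 2711 in DESeq2 and 2630 with only the groups compared. The cause of these shifts was not tested. With each library left out in turn, members called ranged from 1 to 2 in C57Bl6, 0 to 2 in RAG2KO and 0 to 3 in the SOX17OE lines over naive, and 1 to 3 in RAG2KO over C57Bl6. Pathway calls ranged from 8 to 17, 9 to 22, 0 to 11 and 9 to 19, and all calls from 1030 to 2328, 2041 to 4184, 85 to 1931 and 1857 to 3311, in the same order; the lowest counts of the SOX17OE lines are those without the constitutive line.

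With the replicate number of the titles as a block in the 9 naive and tumour-derived libraries, members called were 1 in C57Bl6 and 2 in RAG2KO over naive and 2 in RAG2KO over C57Bl6, pathway calls 11, 16 and 12, and all calls 1737, 3453 and 2688. Ptgs2 (adjusted p = 0.0617), Abcc4 (0.0504) and Fads2 (0.0532) missed the threshold in RAG2KO over C57Bl6 under the block. Deviations of same-numbered libraries correlated between -0.192 and 0.181, and those of different-numbered libraries between -0.251 and 0.171. No sign that the numbers pair the samples was thus seen. A pairing that is small beside the spread within groups would not show in these values. No paired analysis was possible for the SOX17OE lines because they share no replicate number with other groups. Depth limits Alox15 in naive organoids, Alox5 and Ltc4s.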
